A study of Homo sapiens with 6 samples.

Results

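The genes that brake ERK signalling and are themselves switched on by it were examined in SKOV3 cells, a human ovarian cancer cell line, after knockdown of EIF5A2, a translation factor of the eIF5A family. The set held 10 genes chosen by symbol as known feedback or output genes of ERK. They were the phosphatases DUSP1, DUSP4, DUSP5 and DUSP6, the Sprouty genes SPRY1, SPRY2 and SPRY4, the Spred genes SPRED1 and SPRED2, and PHLDA1. Each symbol matched 1 of 58825 gene identifiers, and all 10 genes were among the 16208 genes that passed the filter on low counts. SKOV3 cells were transiently transfected for 48 h with a negative control siRNA (NC, 3 libraries) or with an siRNA against EIF5A2 (si-EIF5A2, 3 libraries), and mRNA was read by paired-end sequencing. The study's methods speak in general of experiments done 3 times, but no source says of these RNA libraries that the 3 of a group came from separate cultures, so p-values measure the spread between these libraries, which may be technical. Neither an untransfected group nor another siRNA against EIF5A2 was analysed here.

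ERK is the last kinase of the RAS, RAF, MEK and ERK cascade, which carries growth factor signals to the nucleus. Active ERK induces its own brakes: dual-specificity phosphatases (DUSPs) remove the phosphates from MAP kinases, Sprouty proteins interfere between the receptor and RAF, and Spred proteins bring the RAS inactivator neurofibromin to the membrane. Transcripts of these genes are often read as a record of ERK output in cancer cells, together with PHLDA1, which encodes a pleckstrin homology-like domain protein.

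After EIF5A2 knockdown, 5 of 10 genes were upregulated (DUSP5, SPRY2, DUSP6, DUSP1 and SPRY4, 1.52-fold to 2.93-fold), 2 were downregulated (DUSP4 and SPRED1, to 47.4% and 58.4% of NC), and 3 did not pass the test (SPRY1, SPRED2 and PHLDA1). Calls required an adjusted p under 0.05 in edgeR's quasi-likelihood test together with a fold change over 1.5. By this rule 24.6% of all genes tested were called, 11.1% upregulated and 13.6% downregulated. In 7 of the 10 genes the 3 NC libraries did not overlap the 3 si-EIF5A2 libraries, which was so for 51.2% of all genes. The median log2 fold change was 0.62 over the 10 genes and -0.01 over all genes tested. In RNA of whole cultures, a change in how many cells carry a transcript and a change in its amount per cell cannot be told apart.

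**Figure D1:**
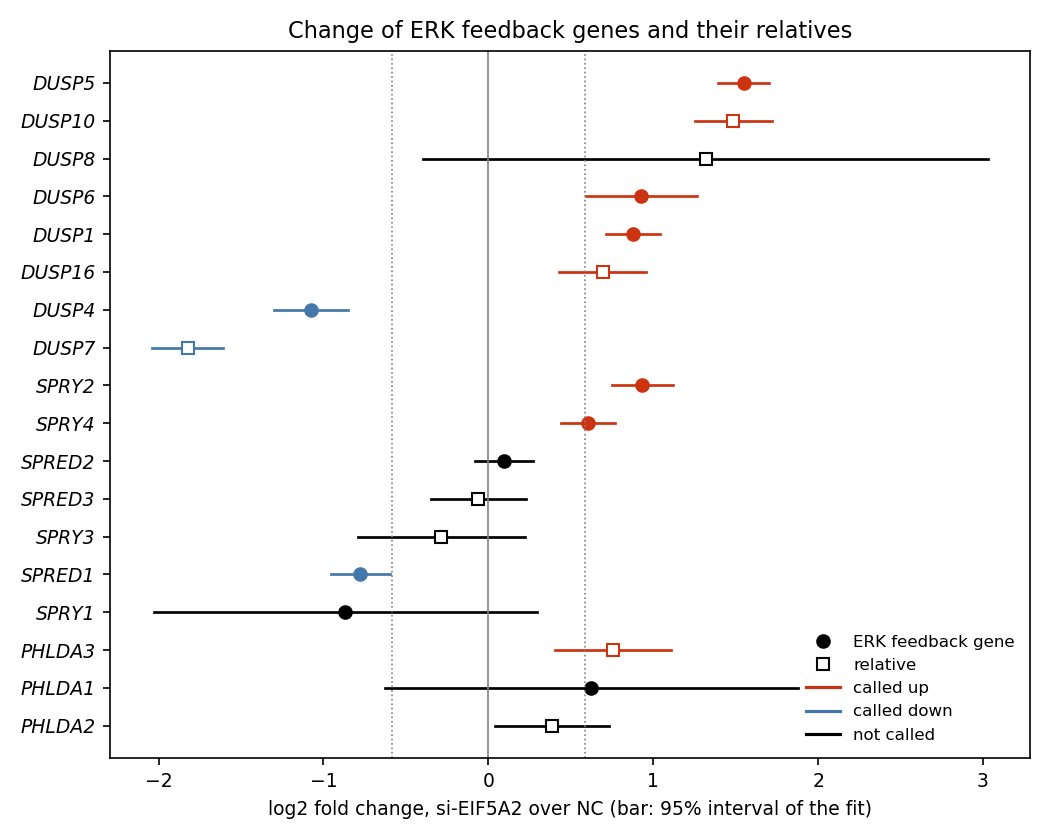
Log2 fold change in si-EIF5A2 over NC of the 10 genes (filled circles) and of their tested relatives (open squares), with bars for the 95% interval of the edgeR fit, dotted lines at the 1.5-fold limits, and red for genes called up, blue for called down and black for not called. Among the 10 genes DUSP5 is highest at 1.55 and DUSP4 lowest at -1.08, and the widest intervals belong to PHLDA1 (-0.63 to 1.88) and SPRY1 (-2.03 to 0.30).

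EIF5A2 itself fell in every si-EIF5A2 library. It had 2030, 2108 and 1404 counts in NC and 141, 211 and 205 in si-EIF5A2, or 29.1 and 3.69 CPM (counts relative to the size of the library) on average, a log2 fold change of -2.98 ± 0.18 (SE, edgeR adjusted p = 1.6e-05). Library totals ran from 46900204 to 74142267 estimated counts, and the 2 largest were NC replicates 1 and 2. Correlations of log2 CPM were 0.964 to 0.974 within groups and 0.929 to 0.938 between them. Of 8 carcinoma cell markers 7 reached 1 CPM (MUC1 was near 0). The summed level of the list was 1506 to 1673 CPM in NC and 955.5 to 1167 CPM in si-EIF5A2. Most of this sum was KRT7, KRT8 and KRT18, and single markers were not compared between the groups. EPCAM and KRT19 were low, at 60 to 121 and 115 to 224 counts per library. All 5 leukocyte markers stayed at or under 12 counts in every library, and 0 of 5 fibroblast markers reached 1 CPM. The 4 endothelial markers summed to 329.9 to 361.1 CPM in NC and 257.0 to 273.4 CPM in si-EIF5A2, nearly all of it TIE1. PECAM1, the other of the 2 that reached a mean of 1 CPM, had 149, 139 and 76 counts in NC. In si-EIF5A2 it had 0, 15 and 32 counts. VWF was at 24 counts or fewer and KDR at 12 or fewer. The mitochondrial share was 6.58% to 7.08% in NC and 6.11% to 6.36% in si-EIF5A2. The part of these differences in the results was not tested. With all libraries thinned to the lowest total, the calls were again 5 up and 2 down.

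Among the nuclear, inducible phosphatases, DUSP5 and DUSP1 rose and DUSP4 fell. DUSP5, which acts on ERK and holds it in the nucleus, spans bases 110497838 to 110511544 of chromosome 10 (plus strand, GRCh38). It was at 231.2, 228.1 and 223.2 CPM in the NC libraries and at 653.6, 647.1 and 695.8 CPM in the si-EIF5A2 libraries. Every si-EIF5A2 library thus lay far above every NC library, and the libraries of a group differed little. The mean rose from 228 ± 4.03 to 666 ± 26.4 CPM (SD, n = 3), a 2.93-fold increase (log2 fold change 1.55 ± 0.07 SE, edgeR adjusted p = 5.45e-06).

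DUSP1, an immediate early gene whose product acts on p38 and JNK as well as ERK, spans bases 172768090 to 172771195 of chromosome 5 (minus strand). Its level was 73.0, 70.6 and 69.4 CPM in NC and 126.2, 135.6 and 129.3 CPM in si-EIF5A2. The groups did not overlap, and the mean rose 1.84-fold, from 71.0 ± 1.86 to 130 ± 4.81 CPM (SD, n = 3; log2 fold change 0.88 ± 0.07 SE, edgeR adjusted p = 6.03e-05).

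DUSP4, an ERK-induced nuclear phosphatase closely related to DUSP1, spans bases 29333064 to 29350668 of chromosome 8 (minus strand). Its level was 82.3, 73.5 and 71.5 CPM in NC and 34.9, 33.7 and 39.1 CPM in si-EIF5A2. Here the si-EIF5A2 libraries were the low ones, again with no overlap. The mean went from 75.7 ± 5.73 to 35.9 ± 2.82 CPM (SD, n = 3), a 2.11-fold decrease (log2 fold change -1.08 ± 0.10 SE, edgeR adjusted p = 0.000107).

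DUSP6, a cytoplasmic phosphatase that prefers ERK, spans bases 89347232 to 89353271 of chromosome 12 (minus strand). It was measured at 79.95, 87.83 and 116.7 CPM in NC and at 194.2, 180.3 and 166.3 CPM in si-EIF5A2. NC replicate 3 was the highest control and still lay under the lowest si-EIF5A2 library. DUSP6 rose 1.90-fold, from 94.8 ± 19.4 to 180 ± 13.9 CPM (SD, n = 3; log2 fold change 0.93 ± 0.14 SE, edgeR adjusted p = 0.0019). It shares 1875 exon bases with AC024909.2 on the opposite strand, which had 817 counts over all libraries. Whether the counting used strand is not given in the sources used here, so reads in that stretch cannot be told apart.

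**Figure D2:**
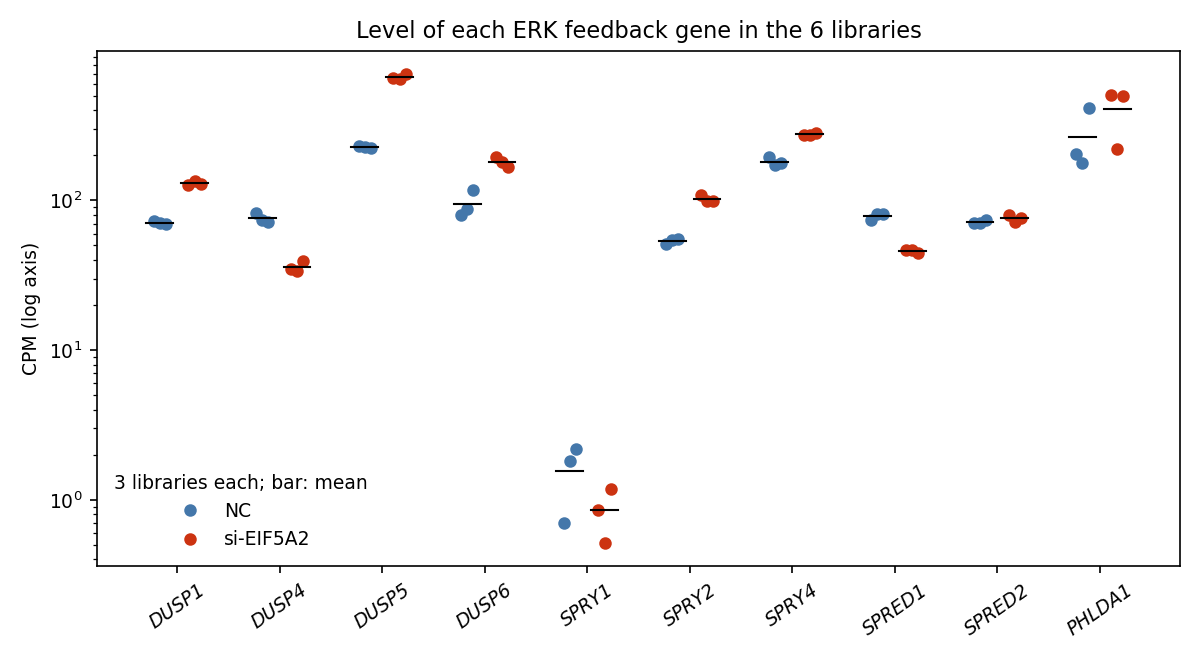
CPM of the 10 genes in each of the 3 NC and 3 si-EIF5A2 libraries on a log axis, 1 point per library and a bar at the group mean. The groups are apart for DUSP1, DUSP4, DUSP5, DUSP6, SPRY2, SPRY4 and SPRED1 and overlap for SPRY1, SPRED2 and PHLDA1.

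Of the Sprouty genes, SPRY2 and SPRY4 rose and SPRY1 did not pass the test. SPRY2, which blocks the activation of RAF downstream of growth factor receptors, spans bases 80335976 to 80340951 of chromosome 13 (minus strand). The NC libraries had 50.7, 54.5 and 55.5 CPM and the si-EIF5A2 libraries 108.7, 99.0 and 99.4 CPM. There was no overlap, and the mean rose 1.91-fold, from 53.6 ± 2.49 to 102 ± 5.53 CPM (SD, n = 3; log2 fold change 0.93 ± 0.08 SE, edgeR adjusted p = 8.53e-05).

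SPRY4, a Sprouty protein that limits RAS and ERK activation by growth factor receptors, spans bases 142310427 to 142326455 of chromosome 5 (minus strand). It was at 193.4, 173.1 and 178.3 CPM in NC and at 273.2, 273.1 and 283.0 CPM in si-EIF5A2. All si-EIF5A2 libraries were higher than the highest NC library. The mean rose 1.52-fold, from 182 ± 10.6 to 276 ± 5.64 CPM (SD, n = 3; log2 fold change 0.61 ± 0.07 SE, edgeR adjusted p = 0.000389), just past the 1.5-fold limit. Its adjusted p stayed under 0.05, but the fold fell below the limit without NC replicate 2 (log2 fold change 0.57), NC replicate 3 (0.58) or si-EIF5A2 replicate 3 (0.58), and with no filter on low counts (0.57).

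SPRY1, which acts like SPRY2 on receptor tyrosine kinase signals, spans bases 123396795 to 123403760 of chromosome 4 (plus strand) and was scarce in both groups. It had 51, 128 and 103 counts in NC and 44, 27 and 57 in si-EIF5A2, where 1 fragment is worth about 3.65 to 3.70 counts. The groups overlapped, and the log2 fold change of -0.87 ± 0.50 (SE) had a 95% interval of -2.03 to 0.30 (edgeR adjusted p = 0.224). The deepest library, NC replicate 1, held the fewest SPRY1 counts of its group, and a decrease was not detectable in these libraries.

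The Spred pair split. SPRED1, a Spred protein that recruits neurofibromin to shut off RAS, spans bases 38252326 to 38357249 of chromosome 15 (plus strand). It had 73.9, 80.6 and 81.3 CPM in NC and 46.4, 46.4 and 44.8 CPM in si-EIF5A2. The si-EIF5A2 libraries were all lower than the lowest NC library, and SPRED1 fell 1.71-fold, from 78.6 ± 4.10 to 45.9 ± 0.903 CPM (SD, n = 3; log2 fold change -0.78 ± 0.08 SE, edgeR adjusted p = 0.000184).

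SPRED2, which has the same function, spans bases 65310851 to 65432637 of chromosome 2 (minus strand). Its level was 70.2, 70.2 and 73.5 CPM in NC and 80.0, 72.2 and 76.7 CPM in si-EIF5A2. The groups overlapped, and the log2 fold change was 0.10 ± 0.08 (SE, edgeR adjusted p = 0.369). Its 95% interval of -0.08 to 0.27 lay within the 1.5-fold limits.

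PHLDA1 spans bases 76025447 to 76033932 of chromosome 12 (minus strand), and its group means differed by less than the SD within si-EIF5A2. It was at 202.7, 178.3 and 414.5 CPM in NC and at 506.6, 219.8 and 500.3 CPM in si-EIF5A2. NC replicate 3 stood with the high si-EIF5A2 libraries, and si-EIF5A2 replicate 2 stood with the low NC libraries. The log2 fold change was 0.62 ± 0.49 (SE, edgeR adjusted p = 0.391), with a 95% interval of -0.63 to 1.88, and it was 1.09 without NC replicate 3 (adjusted p = 0.143) and 0.41 without NC replicate 2 (adjusted p = 0.658). Within a group, the highest PHLDA1 library was up to 2.32 times the lowest. Of 1679 genes at 100 to 1000 CPM, 49 (2.92%) varied as much, and the median ratio was 1.18. Antisense genes AC011611.3 and AC011611.4 share 553 and 779 exon bases with PHLDA1 but had 17 and 2 counts in all.

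Per kilobase of annotated exon, DUSP5 was the most abundant of the 10 transcripts in both groups, at 87.0 ± 1.54 CPM per kb in NC and 254 ± 10.1 in si-EIF5A2 (SD, n = 3). In NC it was followed by DUSP1 (35.2 ± 0.920), PHLDA1 (32.9 ± 16.1), SPRY4 (27.7 ± 1.61), DUSP6 (20.5 ± 4.18), SPRY2 (17.6 ± 0.820), SPRED2 (13.8 ± 0.374), DUSP4 (10.4 ± 0.790), SPRED1 (9.51 ± 0.497) and SPRY1 (0.395 ± 0.195). PHLDA1 did not differ from DUSP1 or SPRY4 beyond its spread, nor DUSP6 from SPRY2. In si-EIF5A2 the order was DUSP1 (64.6 ± 2.38), PHLDA1 (50.7 ± 20.3), SPRY4 (42.1 ± 0.860), DUSP6 (38.9 ± 3.01), SPRY2 (33.7 ± 1.82), SPRED2 (14.8 ± 0.765), SPRED1 (5.56 ± 0.109), DUSP4 (4.95 ± 0.389) and SPRY1 (0.216 ± 0.0847). PHLDA1 again did not differ from its neighbours beyond its spread, and neither did SPRY4 from DUSP6. Exon lengths count every annotated exon, so a gene with long unused exons is placed too low.

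The other MAP kinase phosphatases showed the same split. DUSP7, the cytoplasmic phosphatase most like DUSP6, had 116.6, 105.8 and 100.3 CPM in NC and 31.8, 28.2 and 31.2 CPM in si-EIF5A2. This was a 3.54-fold decrease (log2 fold change -1.82 ± 0.09 SE, edgeR adjusted p = 9e-06), so that DUSP6 and DUSP7 moved in opposite directions. DUSP10, which acts on p38 and JNK, rose 2.80-fold, from 9.87 ± 0.553 to 27.7 ± 0.831 CPM (SD, n = 3; log2 fold change 1.49, edgeR adjusted p = 2.86e-05). DUSP16, a JNK phosphatase, rose 1.62-fold, from 10.1 ± 0.203 to 16.3 ± 1.31 CPM (log2 fold change 0.69, edgeR adjusted p = 0.00221).

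DUSP8, also a phosphatase of JNK and p38, was scarce, with 19, 41 and 3 counts in NC and 44, 26 and 45 in si-EIF5A2, and did not pass the test (log2 fold change 1.32, edgeR adjusted p = 0.21). DUSP9, an ERK phosphatase of the same cytoplasmic class as DUSP6, had 0 counts in every library, and DUSP2, a nuclear one, had 4 counts in si-EIF5A2 replicate 2 and 0 elsewhere. A count of 0 allows up to 3 fragments, for counting error only.

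Of the relatives of the Sprouty, Spred and PHLDA genes, 1 of 4 was called, a share like the 24.6% of all genes tested. PHLDA3, a p53 target that restrains AKT, rose from 82.5 ± 13.1 to 139 ± 21.7 CPM (SD, n = 3; log2 fold change 0.76, edgeR adjusted p = 0.00616). SPRY3 was at 3.23 and 2.66 CPM (log2 fold change -0.28, edgeR adjusted p = 0.364) and SPRED3 at 21.8 and 20.9 CPM (-0.06, adjusted p = 0.745). PHLDA2, an imprinted gene, was at 147 ± 31.7 and 192 ± 11.8 CPM and did not pass the test (log2 fold change 0.39, edgeR adjusted p = 0.0795). Without NC replicate 1 its adjusted p was 0.00474 at a fold below the limit (log2 fold change 0.57).

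Because the phosphatases moved both ways, their total and its composition were followed within each library. Summed over the 10 MAP kinase phosphatases, the level was 177 ± 1.85 CPM per kb in NC and 381 ± 7.32 CPM per kb in si-EIF5A2 (SD, n = 3), with ranges of 175.4 to 179.1 and 375.6 to 389.2. DUSP5 took 49.1% of the sum in NC and 66.8% in si-EIF5A2. The share of DUSP7 went from 10.7% to 1.41% and that of DUSP4 from 5.88% to 1.3%. DUSP1 took 19.4% to 20.2% in NC and 16.4% to 17.9% in si-EIF5A2, a lower share although its level rose. The share of DUSP6 overlapped between the groups (9.64% to 14.2% and 9.22% to 11.1%).

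The Sprouty and Spred transcripts together were at 73.1 ± 0.717 CPM per kb in NC and 100.2 ± 2.07 in si-EIF5A2 (SD, n = 3). SPRY4 held 37.8% of this sum in NC and 42.0% in si-EIF5A2, and SPRY2 went from 24.1% to 33.6%. SPRED1 went from 13.01% to 5.54% and SPRED2 from 18.9% to 14.8%. These sums and shares are given as a description and were not tested.

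**Figure D3:**
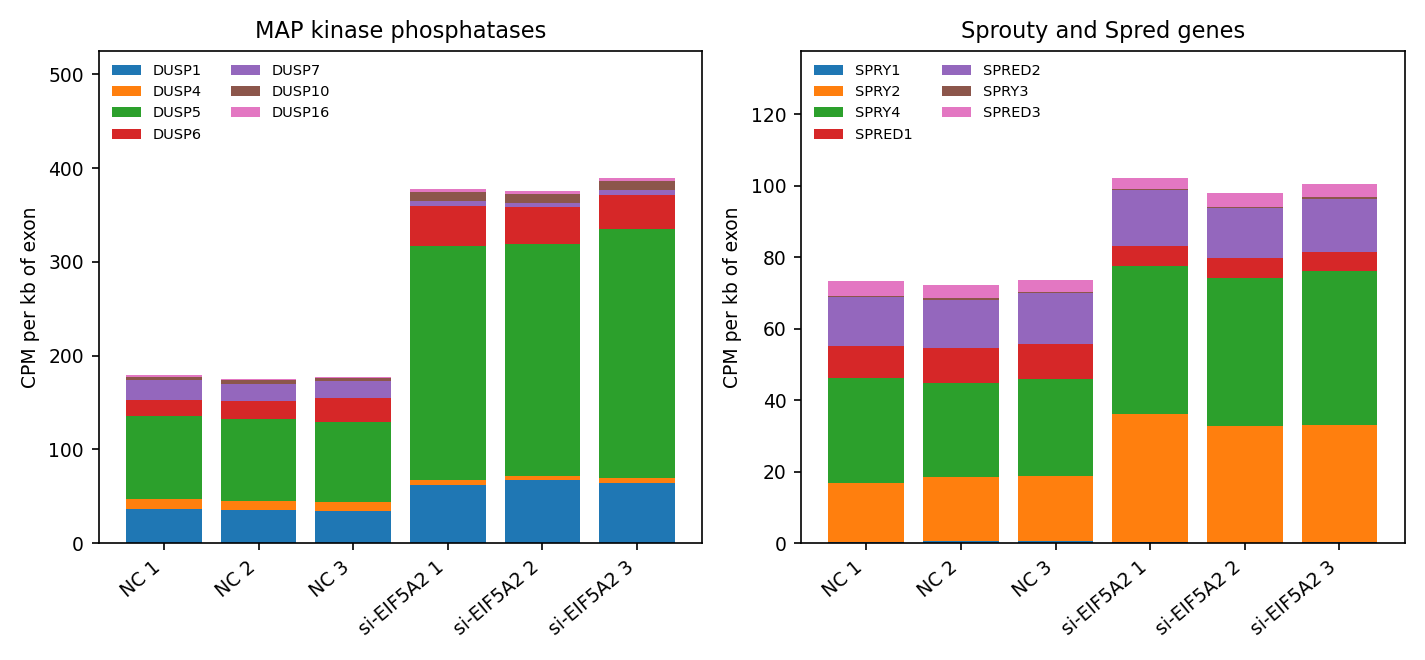
Summed CPM per kb of the MAP kinase phosphatases and of the Sprouty and Spred genes in each of the 6 libraries, stacked by gene (DUSP2, DUSP8 and DUSP9, at or near 0, are not drawn). The phosphatase sum is 175.4 to 179.1 in NC and 375.6 to 389.2 in si-EIF5A2, and most of the added height is DUSP5.

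Ratios between paralogs within a library, chosen after the values had been seen and given without a test, do not depend on library size. The ratio of DUSP5 to DUSP4 per kb was 7.80, 8.62 and 8.66 in NC and 51.9, 53.2 and 49.4 in si-EIF5A2. DUSP6 to DUSP7 was 0.836, 1.01 and 1.42 in NC and 7.45, 7.81 and 6.49 in si-EIF5A2. Both ratios were thus several times higher in every si-EIF5A2 library. SPRY2 to SPRED1 was 1.87, 1.84 and 1.85 in NC and 6.37, 5.80 and 6.03 in si-EIF5A2. SPRED2 to SPRED1 was 1.52, 1.40 and 1.45 in NC and 2.76, 2.49 and 2.74 in si-EIF5A2.

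The brakes act on the RAS and ERK cascade. Of its 24 genes listed, from GRB2 to the RSK kinases, 23 were tested, 5 were upregulated, 1 was downregulated and 17 did not pass, a share called of 26.1% against 24.6% of all genes (median log2 fold change 0.26). MAPK3, which encodes ERK1, fell from 49.0 ± 2.58 to 31.2 ± 3.95 CPM (SD, n = 3; log2 fold change -0.65, edgeR adjusted p = 0.00262). PTPN11, the phosphatase SHP2 that relays receptor signals to RAS, rose from 87.3 ± 5.05 to 140 ± 13.3 CPM (log2 fold change 0.69, edgeR adjusted p = 0.000722). RPS6KA3, an ERK-activated kinase, rose from 22.7 to 36.5 CPM (log2 fold change 0.69, edgeR adjusted p = 0.0063), and SHOC2, a RAF activator, from 20.6 to 38.01 CPM (0.88, adjusted p = 0.0438). Without si-EIF5A2 replicate 1 only 1 gene of the cascade was called, and MAPK3 (-0.57) and RPS6KA3 (0.52) fell under the fold limit. SHOC2 lost its call when any library other than NC replicate 3 was left out (adjusted p = 0.0551 to 0.126).

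Of 22 other brakes on RAS and ERK, 19 were tested, 5 were upregulated, 4 were downregulated and 10 did not pass. The share called was 47.4% against 24.6% of all genes, and the median log2 fold change of the list was 0.04. PEA15, which keeps ERK in the cytoplasm, fell 3.00-fold, from 455 ± 41.2 to 152 ± 7.61 CPM (SD, n = 3; log2 fold change -1.59, edgeR adjusted p = 1.18e-05). DOK1, an adaptor that brings RAS inactivators to kinases, fell from 21.4 to 10.6 CPM (-1.01, adjusted p = 0.00711), and DAB2IP, a RAS GTPase-activating protein, from 50.2 to 31.2 CPM (-0.68, adjusted p = 0.0029). LRIG1, a receptor-degrading membrane protein, rose from 23.4 to 43.2 CPM (0.88, adjusted p = 0.000387), and RASA3, another RAS GTPase-activating protein, from 101 to 164 CPM (0.70, adjusted p = 0.000133). CBLB, a ubiquitin ligase of receptors, rose from 8.62 to 14.3 CPM (0.73, adjusted p = 0.0153), a call lost without NC replicate 2 (adjusted p = 0.0534) and without si-EIF5A2 replicate 1, where the log2 fold change was 0.53.

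The list of other ERK-induced genes, which also took in the ERK-linked transcription factors SRF, ELK1, ELK3 and ELK4, held calls in both directions. Of 24 listed, 23 were tested, 10 were upregulated and 6 downregulated. The share called was 69.6% against 24.6% of all genes, and the median log2 fold change of the list was 0.67. EGR1, a zinc finger immediate early gene, rose from 2.08, 1.82 and 1.74 CPM in NC to 55.8, 46.9 and 48.4 CPM in si-EIF5A2 (log2 fold change 4.74 ± 0.13 SE, edgeR adjusted p = 4.18e-06). FOSB, a subunit of AP-1, went from 0.295 to 2.40 CPM (3.04, adjusted p = 0.000533), and AREG, an EGF receptor ligand, from 0.538 to 3.52 CPM (2.69, adjusted p = 0.000642). Both were scarce in NC, with 17, 16 and 20 counts for FOSB and 42, 51 and 15 for AREG, so the size of these rises is imprecise. FOSL1, the AP-1 subunit FRA1, fell from 1185 ± 93.2 to 562 ± 7.02 CPM (-1.08, adjusted p = 3.23e-05). ETV4, an ETS factor that serves as a readout of sustained ERK activity, fell from 111 ± 8.25 to 54.6 ± 5.76 CPM (-1.02, adjusted p = 0.000189). VGF, a secreted neuropeptide precursor, went from 1.81 to 0.680 CPM (-1.41, adjusted p = 0.0282) and was called in 1 of the 6 fits that left out a library.

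DUSP1, DUSP4, DUSP10 and DUSP16 also act on p38 and JNK. Of 11 genes for these kinases and the MAP2Ks that activate them, 10 were tested, 4 were upregulated and 1 was downregulated, a share called of 50% against 24.6% of all genes (median log2 fold change 0.38). MAPK11, which encodes p38 beta, went from 12.9 ± 2.53 to 29.9 ± 9.86 CPM (SD, n = 3; log2 fold change 1.21, edgeR adjusted p = 0.0145). MAP2K7, an activator of JNK, rose from 14.6 to 27.8 CPM (0.93, adjusted p = 0.000544), and MAP2K3, an activator of p38, from 124 to 225 CPM (0.87, adjusted p = 0.017). The count of 5 called genes dropped to 2 without NC replicate 2 or si-EIF5A2 replicate 1 and to 3 without NC replicate 3. MAPK11 lost its call without NC replicate 2, NC replicate 3 or si-EIF5A2 replicate 1 (edgeR adjusted p = 0.0516 to 0.0603), and MAP2K3 without NC replicate 2, without si-EIF5A2 replicate 2 (adjusted p = 0.0611 and 0.0579) or with no filter on low counts (0.0525). MAP2K6, another activator of p38 and the gene that fell, was named after its values were seen and was at 1.06 and 0.103 CPM (-3.32, adjusted p = 0.034).

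Promoter sequences were looked up because several of the 10 genes moved together. RefSeq windows of 250 bases before a start site (GRCh38.p14) were found for 8 of the 10 genes, 12 windows in all; DUSP4 and DUSP5 had no entry. Motifs were searched by exact letters on both strands: the cyclic AMP response element TGACGTCA, held by 1.65% of 35116 windows, the AP-1 site TGANTCA (6.57%), the ETS core CCGGAA (14.5%), the GC box GGGCGG (42.6%) and the CArG box (1.16%). DUSP1 and SPRY2 are shown because they rose and a response element or ETS core lay in a window outside annotated exons. Capitals mark that match, 125 to 118 bases before the start in DUSP1 (chr5:172771196-172771445, minus strand) and 142 to 137 bases before it in SPRY2 (chr13:80341127-80341376, minus strand), and both read 5′ to 3′ along the gene.
DUSP1: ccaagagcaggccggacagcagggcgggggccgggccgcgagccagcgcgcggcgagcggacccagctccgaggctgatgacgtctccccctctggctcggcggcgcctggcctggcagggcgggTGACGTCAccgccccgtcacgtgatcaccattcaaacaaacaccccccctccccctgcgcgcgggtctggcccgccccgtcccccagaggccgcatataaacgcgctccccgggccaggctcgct
SPRY2: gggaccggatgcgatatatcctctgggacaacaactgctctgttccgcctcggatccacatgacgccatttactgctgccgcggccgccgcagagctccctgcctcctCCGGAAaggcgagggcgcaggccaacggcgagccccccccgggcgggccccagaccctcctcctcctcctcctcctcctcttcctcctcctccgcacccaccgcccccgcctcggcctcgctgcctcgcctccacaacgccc
The DUSP1 window also held 4 GC boxes and the SPRY2 window shown held 2. The other SPRY2 windows held none of the motifs, and the bases after the start shown were not found in a GENCODE transcript of SPRY2. The windows of DUSP6 and SPRY4, which also rose, held neither a response element nor an ETS core. An ETS core was also found for PHLDA1 and for SPRY1, which did not pass the test. GC boxes were found for these genes too, for SPRY4 and for SPRED1, which fell, but not for DUSP6 or SPRED2. No AP-1 site or CArG box was found in any of the 12 windows. These matches describe letters in the windows and were not tested against expression. The shares of all windows given above are per window, whereas SPRY1, SPRY2 and SPRED2 had more than 1 window each.

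**Figure D4:**
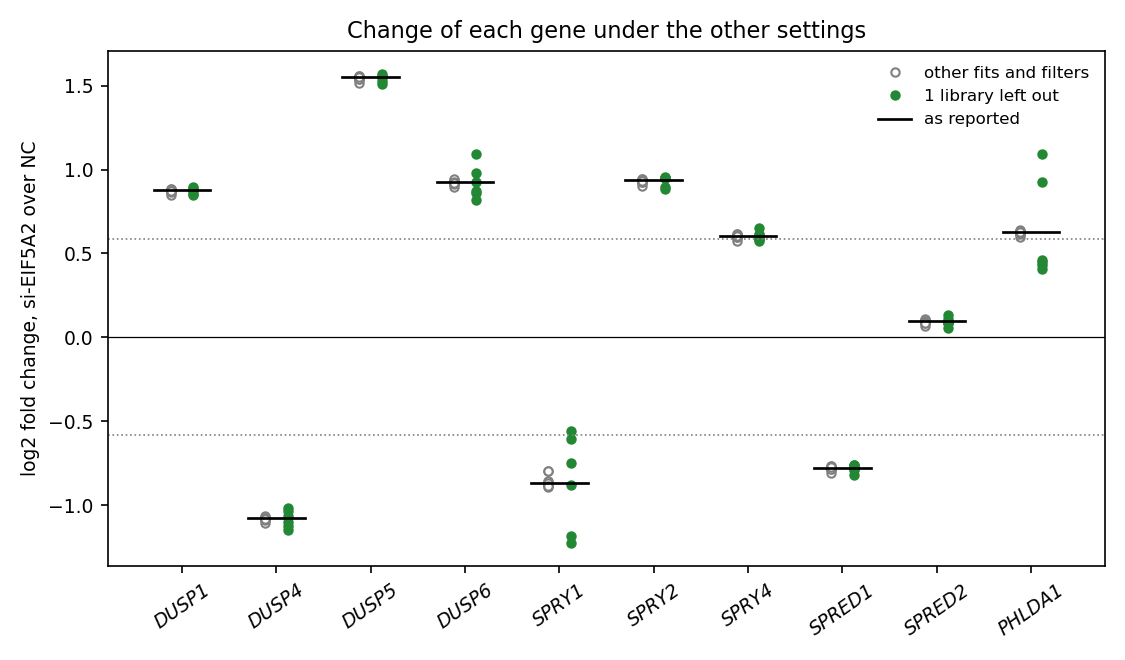
Log2 fold change of each of the 10 genes as reported (bar), under other fits, normalizations and filters (open circles) and with 1 library left out (filled circles), with dotted lines at the 1.5-fold limits. DUSP6 runs from 0.82 to 1.10 over the fits that leave out a library, and PHLDA1 from 0.41 to 1.09.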

How the data were processed

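Libraries of mRNA were read in pairs of 150 bases, and StringTie and ballgown gave the transcript levels. The values deposited by the authors are estimated counts for each gene, in whole numbers, neither normalized nor pooled. Low values pile up at multiples of 3.65 to 3.70, so 1 fragment is worth several counts, and the totals of 46900204 to 74142267 per library overstate the fragments read. The submitters' processing notes name Bowtie 0.12.2 and the mouse builds mm8 and mm9, whereas the identifiers are human; the build used for counting is not given in the sources used here. Positions are those of GENCODE release 29 (GRCh38), which held 58552 of 58825 identifiers. Columns were matched to libraries by name, with 0 left over.

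All genes were fitted with edgeR 4.0.16 (R 4.3.3; filterByExpr, TMM, robust quasi-likelihood, condition only, Benjamini-Hochberg over 16208 genes), and CPM use TMM library sizes. SE is the log2 fold change over the square root of F. The steps were tested on simulated counts. The alternatives were DESeq2 1.42.0, other normalizations, filters and thresholds, the replicate number as a block, same-symbol identifiers summed, counts divided by their step, thinning, and each library left out. The named genes are the 10 genes, the relatives, and from each pathway list the 3 largest called rises and falls at a mean of at least 1 CPM; MAP2K6 was added after its values were seen. The genes, lists and alternatives were chosen with earlier results of these data known. Protein sequences were not used here.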

Additional observations from a re-analysis of the deposited data

How the results depend on the processing

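DUSP1, DUSP4, DUSP5, DUSP6, SPRY2 and SPRED1 kept their direction and their call under every alternative that used the 1.5-fold limit, and SPRY4 kept its direction but not always its call. Leaving out 1 library gave 4 to 5 genes called up and 2 called down, and 3638 to 3907 of all genes called (3992 with all libraries). Under the threshold of the study's methods (unadjusted p under 0.05 and fold over 2), 1 of the 10 genes was called up (DUSP5), 1 was called down (DUSP4), and 2370 of all genes were called. With no limit on the fold, 5974 genes were called. The log2 fold change of SPRED3, which was not called, ran from -0.14 to 0.03 when each library was left out, and it turned positive without si-EIF5A2 replicate 1 (0.026). Libraries of the same replicate number showed no shared deviations over the genes tested (correlations -0.02, 0.01 and -0.003). This does not settle whether they were paired. With the number as a replicate block, 5 of the 10 genes were called up, 2 down, and 3731 genes in all. Of the p38 and JNK genes, 3 instead of 5 were then called. MAP2K3 (edgeR adjusted p = 0.0719) and VGF (adjusted p = 0.0631) lost their calls under this block. SPRY1, DUSP8, DUSP2 and DUSP9 had few or no counts, so their values are imprecise. SPRY1 also varied more within groups than 87.1% of the genes tested.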

Other observations

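MYC, a transcription factor on the list of ERK-induced genes, was chosen after its values were seen. It was at 15.5, 12.7 and 15.0 CPM in the NC libraries and at 174.7, 13.9 and 14.1 CPM in the si-EIF5A2 libraries. The level in si-EIF5A2 replicate 1 stood alone, and the other 5 libraries were close to each other. MYC did not pass the test (log2 fold change 2.23, edgeR adjusted p = 0.213).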
